A study of Homo sapiens with 45 samples.

Results

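The regions described here are the places around human centromeres at which ChIP-seq peaks of CTCF, MBD2, MBD3 or TET1 were listed in HEK293T cells. They were chosen by position only. On 21 chromosomes (1 to 18 and 20 to 22), a window of 7 Mb was set from 2 Mb before to 5 Mb after a rounded start of the centromere gap of the hg19 build, which spans 3 Mb, and every region lying wholly in a window was taken. No region crossed a window edge. Of 53743 regions in 12 peak lists, 1528 were taken, of which the DMSO lists gave 404 CTCF, 299 MBD2, 273 MBD3 and 206 TET1 regions, with 27 to 57 in each list of a treated culture. They lay on 20 chromosomes, and chromosome 9 had none.

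HEK293T is an established human embryonic kidney line, and the labels give it as the cell line of every group. Cells were kept for 72 h in the solvent DMSO, in 30 µM BPK25 or in 0.5 mM IAA, and each of these was combined with 4 antibodies (CTCF, MBD2, MBD3, TET1). Each treatment and antibody had 3 libraries, but the authors called peaks on replicates 1 to 3 together, so each group is 1 pooled list and no difference between groups can be tested against the spread of replicates. The labels give no allele and no target protein for IAA, which is an auxin, and BPK25 is given only by its name. The title of the series sets the question, the NuRD complex and chromatin at CTCF sites.

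Human centromeres lie in long arrays of tandem repeats, chiefly alpha satellite DNA, and the flanking DNA holds further satellites and segmental duplications. Much of this is missing from hg19, where it is shown as a gap, so reads from many copies can pile up on the few copies that the build holds. CTCF is a DNA-binding protein with zinc fingers, found at the borders of chromatin domains. NuRD, which combines nucleosome remodelling with histone deacetylation, contains either MBD2, which binds methylated CpG sites, or MBD3, which in mammals does so weakly if at all, and TET1 oxidises 5-methylcytosine. An enrichment caller compares the fragments over a position (the pileup) with those expected there from a control or its surroundings (the local background), and at a repeat both are raised.

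Each deposited fold enrichment is a linear ratio written by the authors' caller. From it and the deposited significance, the pileup and the local background were recovered for all 53743 regions, the latter given here as a multiple of the smallest in its list (the floor). A background over 3 times the floor is called raised. The floor, which follows depth, was 3.77 to 5.68 fragments in the DMSO lists, 0.256 to 1.86 under BPK25 and 0.911 to 1.14 under IAA. Under IAA it rested on only 4 regions for MBD2, 1 for MBD3 and 2 for TET1. A shallower list can hold fewer regions, so counts are not comparable between treatments as such, and fold values are compared within a list or given side by side. Each interval is a 95% Wilson interval and covers the counting of regions alone.

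The windows held a small share of each DMSO list, and in 7 of the 8 treated lists a share whose interval lay wholly above that in DMSO. In DMSO they held 2.32% (2.104 to 2.55) of CTCF, 1.87% (1.67 to 2.09) of MBD2, 2.69% (2.40 to 3.03) of MBD3 and 2.86% (2.50 to 3.27) of TET1 entries. Under BPK25 the shares were 10.1% (7.47 to 13.6), 7.45% (5.48 to 10.1), 13.9% (10.8 to 17.8) and 3.47% (2.40 to 5.01), and the interval of TET1 overlapped that in DMSO. Under IAA they were 9.58% (7.47 to 12.2) of CTCF regions, but 41.3% (33.4 to 49.6) of the MBD2 list, 41.1% (31.7 to 51.1) of the MBD3 list and 38% (29.1 to 47.8) of the TET1 list. The last 3 lists are short, so these shares stand for 57 of 138, 39 of 95 and 38 of 100 regions.

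**Figure D1:**
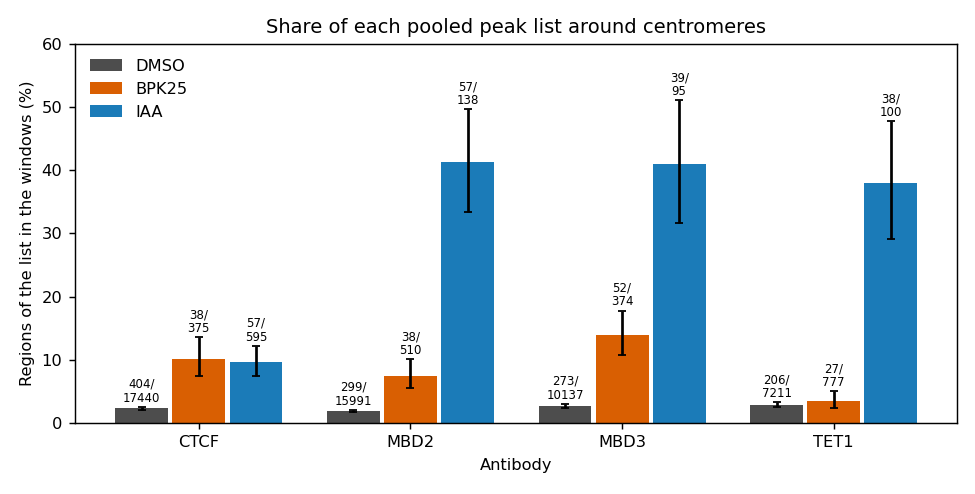
Share of the regions of each pooled peak list that lay in the centromere windows (y axis, percent, starting at 0), by antibody (x axis) and treatment (colour). Bars are shares, error bars 95% Wilson intervals over regions, and the numbers above give regions in the windows over regions in the list; MBD2, MBD3 and TET1 under IAA stand at 38% to 41.3%.

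In regions per Mb of flank, the DMSO density here was 0.665 to 1.03 times that elsewhere on the same chromosomes, depending on the antibody. The CTCF ratio of the 2 densities was 0.831 in DMSO, 5.87 under BPK25 and 4.24 under IAA. In the same order MBD2 had ratios of 0.665, 3.25 and 72.6, MBD3 of 0.974, 7.92 and 138, and TET1 of 1.03, 1.3 and 86.4. The last IAA ratios rest on few regions elsewhere, 25 of the 81 outside the windows for MBD2, 9 of 56 for MBD3 and 14 of 62 for TET1. The others lay off these chromosomes and were left out. The flanks were taken as 84 Mb in all and the rest as 2673 Mb, with any unsequenced bases in either counted, so these ratios are rough.

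Few chromosomes carried most of the regions. In the DMSO CTCF list chromosome 2 had 73, chromosome 17 had 52 and chromosome 10 had 41, and 3 each lay on chromosomes 15 and 16. Chromosomes 1, 2, 10, 11, 17 and 18 together held 55.4% to 60.2% of the DMSO regions in the windows, depending on the antibody. They held 73.7% to 89.5% of those under BPK25 and 71.9% to 89.7% of those under IAA. No rule fixed beforehand picked this set of chromosomes. Chromosomes 8 (28) and 20 (27) had more DMSO CTCF regions than chromosomes 1 (26) and 18 (23). The higher treated shares may thus follow from the choice of the set. Chromosome 20, outside this set, had 27 CTCF, 26 MBD2, 19 MBD3 and 15 TET1 regions in DMSO and at most 1 in any treated list.

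**Figure D2:**
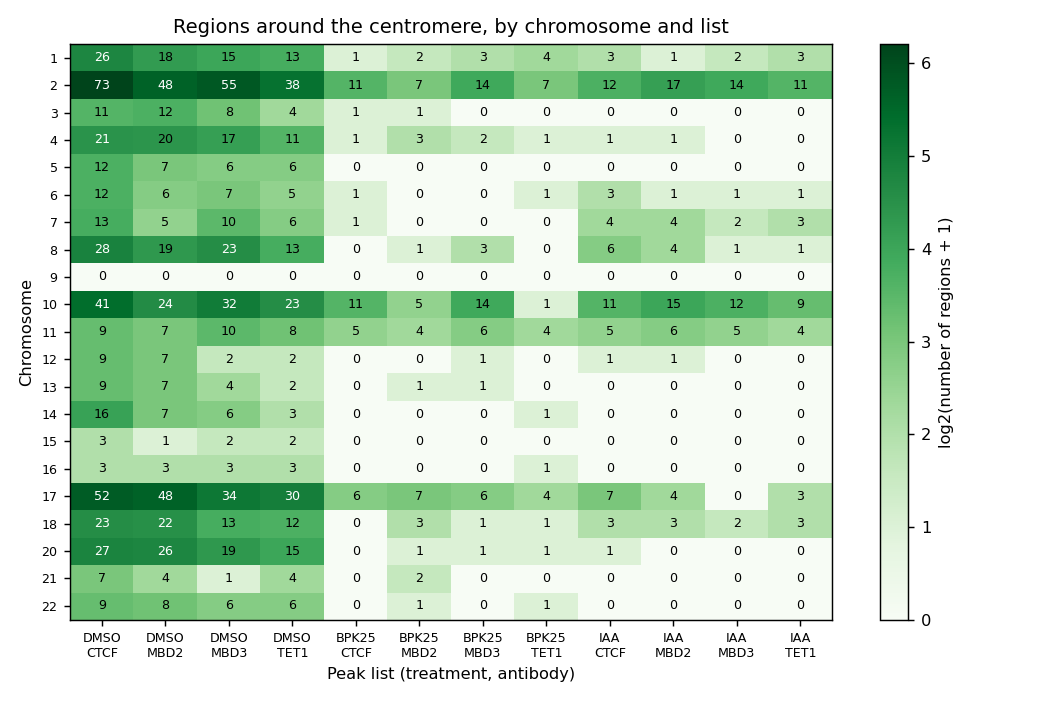
Number of regions in the centromere window of each chromosome (rows) in each of the 12 lists (columns), with the colour on a log2(number + 1) scale. Chromosome 2 has the most in DMSO (73 for CTCF), chromosome 9 has none, and the treated lists keep counts of 4 or more mainly on chromosomes 2, 10, 11 and 17.

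Raised local background was common in the windows. It was found at 166 of the 404 DMSO CTCF regions (41.1%, 36.4 to 45.9), against 10.6% of the whole list. For MBD2 it was 99 of 299 (33.1%), against 10.3% of the whole list, for MBD3 137 of 273 (50.2%) against 12.6%, and for TET1 101 of 206 (49.0%) against 12.4%. Under BPK25, raised background was found in the windows at 34 of 38 CTCF, 30 of 38 MBD2, 47 of 52 MBD3 and 18 of 27 TET1 entries, where the whole lists had 48.3%, 29.0%, 47.3% and 19.0%. Under IAA it was 52 of 57 for CTCF, against 23.9% of that list. All 57 MBD2, 39 MBD3 and 38 TET1 regions under IAA had it, in lists where 92.0%, 95.8% and 97.0% did, so for these 3 antibodies the share in the windows is close to that of the list.

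In DMSO the median background was highest, and the median fold lowest, within 0.1 Mb of the gap. There lay 108 DMSO CTCF regions, 90 of them with raised background, with a median of 75.2 times the floor and a median fold of 1.93. From 0.1 to 0.3 Mb there were 34 with a median fold of 2.29, and from 0.3 to 1 Mb 105 with 4.06. From 1 to 2 Mb there were 157, of which 27 had raised background, with a median of 1.84 times the floor and a fold of 4.17. The other antibodies showed the same order between the ends of this range, where MBD2 had a median fold of 1.69 within 0.1 Mb and 4.68 from 1 to 2 Mb, MBD3 had 1.77 and 3.93, and TET1 had 1.59 and 3.24.

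The outer edge of the windows marked no step. Within 1 Mb inside an outer edge the 157 DMSO CTCF regions had a median fold of 4.17, and within 1 Mb outside there were 201 with a median fold of 4.24. The nearest region inside, chr14:20999226-20999543, lay 653 bp from the edge with a fold of 3.83 and a background of 2.35 times the floor. The nearest outside, chr11:56608763-56609051, lay 8889 bp away with a fold of 5.05 at the floor itself.

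In the DMSO lists, regions in the windows more often had several summits, and had a lower median fold, than the rest of their list. The median CTCF fold was 3.39 in the windows and 4.33 in the rest. The MBD2 medians were 4.11 and 4.54, the MBD3 medians 2.77 and 3.86, and the TET1 medians 2.62 and 3.39. More than 1 summit was listed in 52 of 404 CTCF regions (12.9%) against 2.3% of the whole list, in 24 of 299 MBD2 regions (8.03%) against 2.12%, in 40 of 273 MBD3 regions (14.7%) against 2.8%, and in 25 of 206 TET1 regions (12.1%) against 3.34%. Both features followed the background. At most 3 times the floor, the 238 CTCF regions in the windows had a median fold of 4.44, a median pileup of 37 and more than 1 summit in 6, while the 166 with raised background had a fold of 1.88, a pileup of 272.5 and more than 1 summit in 46.

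**Figure D3:**
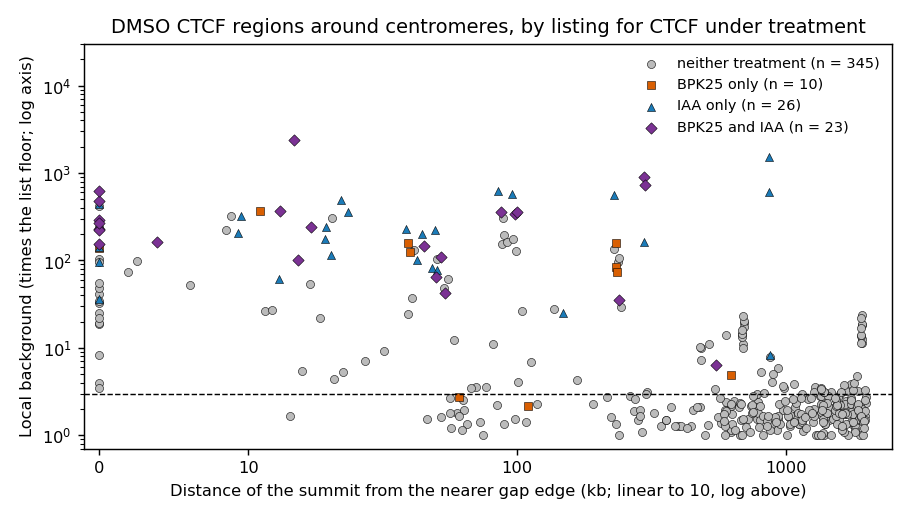
Local background in multiples of the list floor (y axis, log scale) against the distance of the summit from the nearer gap edge in kb (x axis, linear to 10 and log above) for the 404 DMSO CTCF regions in the windows. Colour and marker give the listing for CTCF under treatment, and the dashed line is 3 times the floor; the 23 regions listed under both treatments all lie above it.

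The DMSO regions of MBD2, MBD3 and TET1 in the windows mostly coincided with CTCF regions. An overlapping CTCF region was present at 249 of 299 MBD2 regions (83.3%, 78.6 to 87.1), where the whole list had 73.5%. It was present at 238 of 273 MBD3 regions (87.2%, 82.7 to 90.6), where the list had 80.0%, and at 175 of 206 TET1 regions (85.0%, 79.4 to 89.2), where the list's 82.1% lies inside the interval. With raised background these shares were 98.0% (92.9 to 99.4), 95.6% (90.8 to 98.0) and 96.0% (90.3 to 98.4) in the windows, and without it 76%, 78.7% and 74.3%. The rest of the lists had 86.0%, 91.2% and 94.6% with raised background, so the MBD3 and TET1 values lie within the intervals of the windows. Of the MBD2 regions with raised background, 1438 of 1545 in the rest lay at 3 to 10 times the floor, against 26 of 99 in the windows. The shares with raised background are thus not matched for its level. In the rest of the lists the shares without raised background were 71.9%, 78.3% and 80.5%, which lie within the intervals of the windows.

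Seen from CTCF, MBD3 and TET1 were more frequent and MBD2 less frequent partners in the windows than over the list. Of the 404 CTCF regions, 237 (58.7%, 53.8 to 63.4) had an MBD3 region where the list had 46.4%, 173 (42.8%, 38.1 to 47.7) had TET1 where the list had 33.9%, and 250 (61.9%, 57.1 to 66.5) had MBD2 where the list had 67.4%. All 3 partners were present at 131 (32.4%, 28.0 to 37.1), where the list had 23.0%, and none at 88 (21.8%, 18.0 to 26.1), where the list had 23.4%. The CTCF regions with all 3 partners were 77 of 166 with raised background (46.4%, 39.0 to 54.0), where the list had 36.5%. Without raised background they were 54 of 238 (22.7%, 17.8 to 28.4), where the list's 21.4% lies inside the interval.

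MBD2 and MBD3 differed as partners with the background. At most 3 times the floor, MBD2 was at 64.7% (58.4 to 70.5) of the CTCF regions in the windows and MBD3 at 45.8% (39.6 to 52.1). The rest of the list had 66.3% and 44.7%, inside these intervals. From 3 to 10 times the floor MBD2 and MBD3 were at 23 and 21 of 47 in the windows, and the intervals overlapped. In the rest of the list that class had MBD2 at 80.7% (78.6 to 82.6), above the 48.9% (35.3 to 62.8) of the windows. MBD3 was at 56.6% there, inside the interval of the windows (44.7%, 31.4 to 58.8). From 10 to 30 times the floor MBD2 was at 12 of 36 (33.3%, 20.2 to 49.7) and MBD3 at 29 of 36 (80.6%, 65.0 to 90.2). In the rest of the list that class had MBD2 at 16 of 32 and MBD3 at 18 of 32, with overlapping intervals, so the wide gap was not seen there. From 30 to 100 times the floor MBD2 was at 13 and MBD3 at 20 of 24 in the windows, and at 47 and 70 of 87 in the rest. Over 100 times the floor both were frequent, MBD2 at 48 of 59 and MBD3 at 58 of 59, and in the rest of the list MBD2 was at 36 of 48 and MBD3 at 48 of 48 such CTCF regions. TET1 was at 13 of 36 from 10 to 30 times the floor and at 47 of 59 over 100 times.

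A pair of places on the short arm side of chromosome 2 carried much of that pattern. In chr2:91596753-91613917, 12 loci lay at a median spacing of 1560 bp, with 10 CTCF and 11 MBD3 regions but 2 of MBD2 and 1 of TET1. The CTCF folds there ran from 1.49 to 2.57, the MBD3 folds from 1.53 to 2.38, the MBD2 folds were 1.62 and 1.66, and the TET1 fold was 1.53. In chr2:90373394-90451544, 12 loci had 11 CTCF, 9 MBD3, 2 MBD2 and 4 TET1 regions, at a background of 13.9 times the floor. The MBD2 list was the shallowest of the 4 in DMSO and the TET1 list the deepest, and the part of depth in these counts was not tested.

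At places in the windows listed for all 4 antibodies in DMSO, the folds of the 4 lay close together where the background was raised. At 77 such CTCF regions in the windows the largest of the 4 folds was 1.19 times the smallest (median, 10th to 90th percentile 1.08 to 1.66), and the median folds were 1.85 (CTCF), 1.72 (MBD2), 1.78 (MBD3) and 1.59 (TET1). At the 54 without raised background the ratio was 1.77 (1.40 to 2.29), with median folds of 5.63, 5.55, 4.34 and 3.52. In the rest of the list the ratio was 1.61 with raised background, at a median CTCF fold of 4.46, and 1.65 without. Of all CTCF regions with raised background, 1517 of 1684 in the rest lay at 3 to 10 times the floor. In the windows 47 of 166 did, so the ratios with raised background are not matched for its level. These ratios come from lists of different depth that may share their input control, so they describe the lists and are no test of the proteins.

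Merging overlapping regions of the 12 lists gave 524 loci, of which 413 were in DMSO lists only. A treated list was present at 111, with both treatments at 45, BPK25 alone at 41 and IAA alone at 25. One list alone held 185 loci, while 41 loci were in 8 or more lists. Of these 41, 13 lay on chromosome 2, 11 on chromosome 10, 5 on chromosome 17 and 4 on chromosome 11, and 38 lay within 0.3 Mb of a gap edge.

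The most widely listed locus, chr1:121484382-121485401, was in all 12 lists and lay 14.8 kb from the gap. Its DMSO pileups were 18455 (CTCF), 16862 (MBD2), 18757 (MBD3) and 21261 (TET1), the highest of each of these lists in the windows, on backgrounds of 2419 to 2447 times the floor. The folds there were nonetheless low, at 1.75, 1.85, 1.63 and 1.53. Under BPK25 they were 1.95, 1.35, 1.98 and 1.45 with pileups of 2612, 13315, 3830 and 8923, and under IAA 1.96, 1.98, 2.08 and 1.81 with pileups of 7476, 8717, 7562 and 8388. The 12 folds thus span 1.35 to 2.08, and both extremes are in treated lists.

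Another 5 loci were in all 12 lists. On chromosome 2 these were chr2:92312573-92313423, with folds from 1.27 to 2.14, chr2:92318822-92319182, with folds from 1.25 to 1.66, and chr2:92296062-92296412, with folds from 1.52 to 2.29. On chromosome 11 they were chr11:51582628-51583052, with folds from 1.59 to 2.41, and chr11:51584639-51584991, with folds from 1.61 to 3.19. The highest of these values, 3.19, was that of CTCF under BPK25, with a pileup of 99, while CTCF in DMSO had 1.83 at the same locus.

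**Figure D4:**
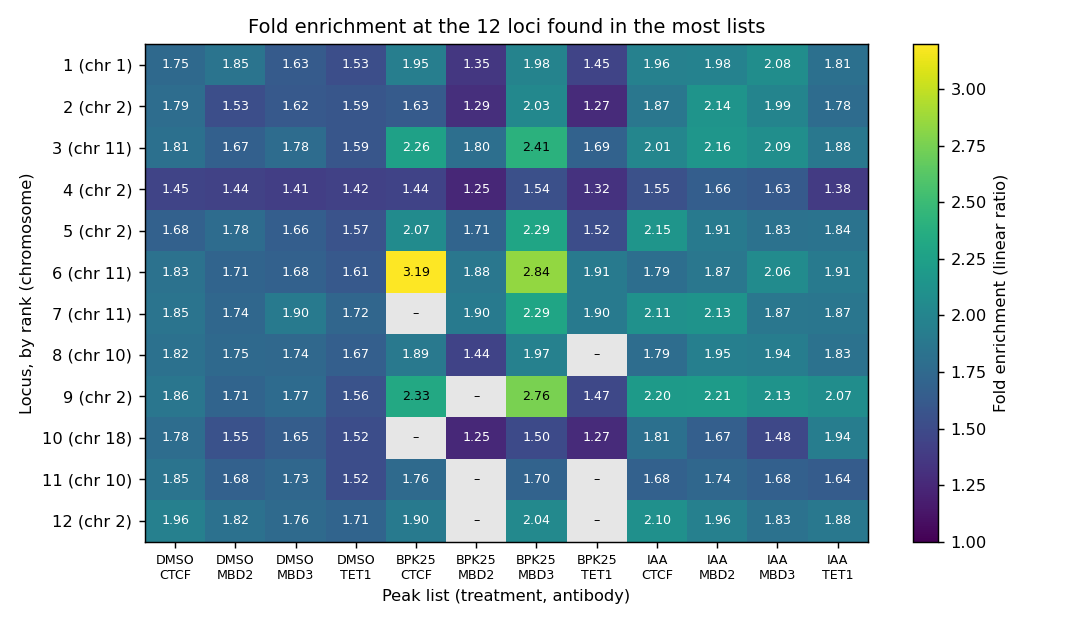
Fold enrichment (colour and printed value, linear ratio) at the 12 loci found in the most lists (rows, ranked by number of lists and then by significance, with their chromosome) in each of the 12 lists (columns); a dash on grey marks a list without a region there. The DMSO values lie between 1.41 and 1.96, and the largest value, 3.19, is CTCF under BPK25 at the sixth locus.

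Regions in the windows remained listed under treatment more often than those of the list as a whole. For CTCF, 33 of 404 DMSO regions (8.17%, 5.88 to 11.2) overlapped a CTCF region under BPK25, where the list had 1.27%, and 49 (12.1%, 9.30 to 15.7) under IAA, where the list had 0.952%. For MBD2, 30 of 299 (10.0%, 7.12 to 13.96) were listed under BPK25 against 1.45% of the list, and 50 (16.7%, 12.9 to 21.4) under IAA against 0.613%. For MBD3, 44 of 273 (16.1%, 12.2 to 20.9) were listed under BPK25 against 1.71%, and 39 (14.3%, 10.6 to 18.9) under IAA against 0.74%. For TET1, 19 of 206 (9.22%, 5.98 to 13.96) were listed under BPK25 against 6.91%, with the list's share inside the interval, and 36 (17.5%, 12.9 to 23.2) under IAA against 1.07%. Neither treatment listed 345 CTCF (85.4%), 238 MBD2 (79.6%), 217 MBD3 (79.5%) and 161 TET1 regions (78.2%) of the windows. Over each whole list the share listed by neither was larger, as the listed shares above imply.

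The regions that remained listed were mostly of raised background. Without raised background, BPK25 lists held 2 of 238 CTCF, 3 of 200 MBD2, 1 of 136 MBD3 and 1 of 105 TET1 places, where the whole lists at the same background had 0.314%, 0.802%, 0.293% and 5.14%, each inside the interval of the windows. IAA lists held 0 of each, which allows shares of up to 1.59%, 1.88%, 2.75% and 3.53% by the interval, where the whole lists had 0.263%, 0%, 0.0113% and 0.0158%. The CTCF regions listed under IAA had a median DMSO fold of 1.78 and a background of 226 times the floor, against 3.73 and 2.15 for those not listed. Distance to the gap went with this, since 38 of 108 CTCF regions within 0.1 Mb were listed under IAA and 4 of 262 beyond 0.3 Mb, and for MBD2 40 of 68 and 3 of 204.

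At the same background, the interval of the windows lay wholly above that of the rest of the list in none of the classes compared (at most 3, 3 to 10, 10 to 30, 30 to 100 and over 100 times the floor). Over 100 times the floor, 38 of 59 CTCF regions in the windows (64.4%, 51.7 to 75.4) and 30 of 48 elsewhere (62.5%, 48.4 to 74.8) were listed under IAA, and 24 of 59 and 24 of 48 under BPK25. For MBD2 these counts were 42 of 50 and 28 of 39 under IAA, and 18 of 50 and 22 of 39 under BPK25. For MBD3 they were 37 of 60 and 21 of 52 under IAA, and 33 of 60 and 30 of 52 under BPK25, and for TET1 30 of 50 and 22 of 32, and 12 of 50 and 14 of 32. All 8 pairs have overlapping intervals. The windows lay below the rest for CTCF under BPK25 from 10 to 30 times the floor, with 0 of 36 (0% to 9.64%) against 11 of 32 (34.4%, 20.4 to 51.7). From 30 to 100 times the floor they lay lower for CTCF and MBD3 under BPK25, with 5 of 24 (20.8%, 9.24 to 40.5) against 58 of 87 (66.7%, 56.2 to 75.7) for CTCF and 5 of 21 (23.8%, 10.6 to 45.1) against 41 of 73 (56.2%, 44.8 to 67.0) for MBD3, the latter with intervals that meet. Each DMSO pileup in the windows was also thinned to the treated floor, with its background scaled by the same ratio. Backgrounds did not all scale so. At chr1:121484382-121485401 that of CTCF was 2422 times the floor in DMSO and 5247 under BPK25. The expected share passing the least significance of the treated list under BPK25 was 14.5% (CTCF), 76.0% (MBD2), 20.7% (MBD3) and 38.3% (TET1). Under IAA it was 43.2%, 47.5%, 32.6% and 28.1%, but most IAA floors rest on few regions. Over all backgrounds these lie above the listed shares of the windows, though not in every background class. Because the scaling did not hold at every region, the expected shares cannot decide the part of the lower depth in the listed shares, which was not tested.

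**Figure D5:**
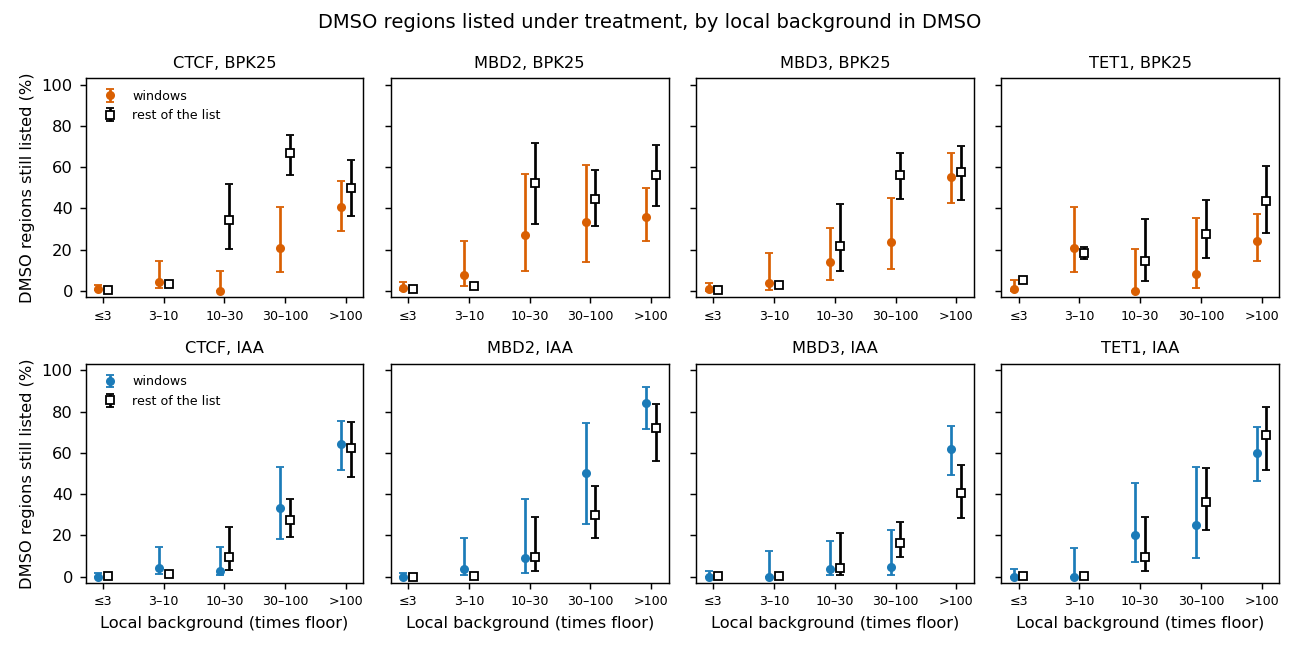
Share of DMSO regions that overlapped a region of the same antibody under BPK25 (upper row) or IAA (lower row) (y axis, percent), by local background in DMSO in multiples of the floor (x axis), for regions in the windows (filled circles) and in the rest of the list (open squares). Error bars are 95% Wilson intervals over regions; under IAA the share in the windows is 0 at most 3 times the floor and 60% to 84% over 100 times.

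Most treated regions in the windows lay at DMSO regions of their own antibody. Under BPK25 this held for 33 of 38 CTCF regions (86.8%, 72.7 to 94.2), where the list had 59.5%, for 30 of 38 MBD2 regions, where the list had 46.5%, for 45 of 52 MBD3 regions, where the list had 46.5%, and for 19 of 27 TET1 regions, where the list had 64.2%. Under IAA it held for 51 of 57 CTCF regions (89.5%, 78.9 to 95.1), where the list had 28.6%, for 50 of 57 MBD2 regions (list 71.7%), for all 39 MBD3 regions (list 78.9%) and for 36 of 38 TET1 regions (list 77.0%). The CTCF list under IAA is thus the one in which the windows differ most from the rest, where 119 of 538 regions lay at a DMSO CTCF region.

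Treated lists of different antibodies also coincided here. Under BPK25, 30 of 38 CTCF regions (78.9%, 63.7 to 88.9) had an MBD3 region, where the list had 38.4%, 16 (42.1%, 27.9 to 57.8) had MBD2, where the list had 25.1%, and 11 (28.9%, 17.003 to 44.8) had TET1, where the list's 20.3% lies inside the interval. With raised background the MBD3 shares were 88.2% (73.4 to 95.3) in the windows and 68.7% (60.8 to 75.6) in the rest. The MBD2 shares were then 47.1% and 42.2%, and the TET1 shares 32.4% and 31.3%. The intervals of the windows and the rest overlapped for each of these partners. Under IAA, 44 of 57 CTCF regions (77.2%, 64.8 to 86.2) had MBD2, where the list had 16.6%, 35 (61.4%) had MBD3, where the list had 11.8%, and 37 (64.9%) had TET1, where the list had 13.6%. With raised background these shares were 84.6%, 67.3% and 71.2% in the windows, and 52.2%, 37.8% and 48.9% in the rest. The intervals overlapped for TET1 only. Under neither treatment were the shares with raised background matched for its level. Where CTCF had all 3 partners in DMSO, 27 of 131 regions were listed under BPK25 and 40 of 131 under IAA, against 2 and 1 of the 88 with none. These classes also differed in background, which was raised at 77 of the 131 and 30 of the 88. Their median DMSO pileups were 106 and 33, and the part of the partners apart from this was not tested.

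Loci were gathered in clusters by joining neighbours at most 50 kb apart, which gave 227 clusters, 18 of them with 6 loci or more. Of these 18, 8 had a median background over 30 times the floor, and they held 98 loci. They contained 306 of the 1182 DMSO regions (25.9%) but 251 of the 346 treated regions (72.5%) in the windows.

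The largest cluster, chr2:92210250-92325287, reached the gap of chromosome 2 and held 26 loci at a median spacing of 1676 bp. It had 25 CTCF, 21 MBD2, 23 MBD3 and 19 TET1 regions in DMSO, 9, 7, 13 and 5 under BPK25, and 12, 17, 14 and 11 under IAA. The median fold was 1.94, 1.53, 1.77 and 1.57 in DMSO, 2.04, 1.44, 2.17 and 1.47 under BPK25, and 1.98, 1.96, 1.83 and 1.84 under IAA. On the long arm side of chromosome 10, chr10:42356733-42404610 held 18 loci with 18 CTCF regions in DMSO, 4 under BPK25 and 5 under IAA, and chr10:42529312-42543875 held 10 loci. In chr11:51579461-51591337, 9 loci gave 8 CTCF regions in DMSO and 5 under each treatment.

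The cluster chr17:22245548-22261296 separated the antibodies under IAA. It held 9 loci with 9 CTCF, 8 MBD2, 9 MBD3 and 7 TET1 regions in DMSO, and 6, 6, 6 and 3 under BPK25. Under IAA it had 5 CTCF, 4 MBD2 and 3 TET1 regions, and 0 of MBD3. The MBD3 list under IAA, the shortest of the 12 lists, had no region on chromosome 17 in the windows.

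Other clusters had many DMSO regions at low background and none under treatment. In chr20:30145144-30249640, 8 loci at a median background of 1.87 times the floor gave 7 CTCF, 7 MBD2, 5 MBD3 and 4 TET1 regions, with CTCF folds from 3.57 to 8.08. In chr17:25926910-25982218, 7 loci gave 6 CTCF, 5 MBD2, 5 MBD3 and 4 TET1 regions, with MBD2 folds from 4.204 to 7.27. Both lay more than 0.3 Mb from a gap edge.

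The highest folds in the windows belonged to single places of low or intermediate background. For CTCF in DMSO the highest was 12.7 at chr2:95539960-95540240, at the floor and 240 kb from the gap, with a pileup of 67. MBD2 had a fold of 6.92 there, and no other list held it. The next, chr1:120688396-120688727, lay at a raised background of 5.31 to 5.44 times the floor in the DMSO lists. Its DMSO folds were 9.84 (CTCF), 10.3 (MBD2), 7.19 (MBD3) and 6.17 (TET1), and TET1 under BPK25 had 7.49. The MBD2 value was the highest of that list in the windows. In the MBD3 list the highest was 7.325 at chr2:96079828-96080101, with CTCF at 8.03, MBD2 at 6.09 and TET1 at 4.39. In the TET1 list it was 6.44 at chr17:25708069-25708349, with CTCF at 6.56, MBD2 at 7.71 and MBD3 at 4.63, and neither of these places was in a treated list.

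A few places of low or intermediate background were listed under treatment too. At chr22:16166479-16166762 TET1 had a fold of 10.4 under BPK25 with a pileup of 35, and MBD2 one of 6.95 with a pileup of 32, where the DMSO folds were 3.65 for TET1, 7.10 for MBD2, 7.56 for CTCF and 5.54 for MBD3. At chr2:96658630-96658863 TET1 under BPK25 had a fold of 8.91 with a pileup of 21, and all 4 DMSO lists held the place, with a TET1 fold of 3.53. The locus chr4:49151172-49151816 was in 10 lists, all but MBD3 and TET1 under IAA, at DMSO backgrounds of 5.56 to 6.49 times the floor. Its CTCF fold was 3.62 in DMSO, 5.82 under BPK25 and 2.94 under IAA, and its MBD2 fold was 3.09, 3.22 and 3.54. The treated pileups at this locus were 20 to 76 fragments, so the treated folds rest on few fragments.

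Only 21 loci were in treated lists and in no DMSO list, and 17 of them were in 1 list. At chr11:51588277-51588479, inside the chromosome 11 cluster, CTCF, MBD2 and MBD3 under BPK25 had folds of 3.21, 2.47 and 3.08 with pileups of 144, 776 and 197. At chr17:26794838-26795385 CTCF under IAA had a fold of 11.6 with a pileup of 26, the highest fold of any IAA region in the windows, and MBD2 under BPK25 had 4.001 with a pileup of 18. Gene and repeat annotation of the hg19 build was not used here, so no region is assigned to a gene or a repeat family.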

How the data were processed

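ChIP-seq of CTCF, MBD2, MBD3 and TET1 was made in HEK293T cells under DMSO, BPK25 or IAA, with 36 immunoprecipitated and 9 input libraries. The submitters' processing notes name the build hg19 and the tools MACS2 2.1.2, Bowtie2 2.3.4, bedtools 2.25.0, SAMtools 1.9, deepTools 3.5.0 and FastQC 0.11.7. The sources used here give neither tool settings nor the handling of multi-mapped reads.

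Each of the 12 deposited peak lists gives a linear fold ratio, the p-value and q-value as −log10, a score and a summit offset. The authors' score was not used. Whether replicates were separate cultures is not given.

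Sub-peaks with the same ends were merged into 1 region, described by its most significant sub-peak. Overlap was 1 bp or more. The pileup and local background were solved from fold (pileup plus 1 over background plus 1) and the Poisson tail, within 0.01% for all regions. The depth of single libraries is unknown.

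Comparisons are shares with 95% Wilson intervals. No test between pooled lists was possible. Named loci are the 12 in the most lists, the 3 of highest fold per DMSO list, and per treated list the 2 of highest fold at and the 2 off DMSO regions, with a −log10 q of at least 5 except for the 12. Members and lists were chosen with earlier results of these data known. Scripts (Python 3.11.15, pandas 2.3.3, SciPy 1.17.1) were tested on simulated data. The alternatives tried were a stricter −log10 q (5 or more), an overlap of 50% of the shorter region, and regions of at most 3 times the floor.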

Additional observations from a re-analysis of the deposited data

How the results depend on the processing

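With a −log10 q of 5 or more, 20 of 23 shares moved by less than their interval. The others were the share in the windows of CTCF under BPK25 (16.9%) and of MBD3 under BPK25 (25.6%), and the share of DMSO TET1 regions at CTCF (91.0%). With an overlap of 50% of the shorter region, 11 of 11 shares moved by less than their interval. With regions of at most 3 times the floor, all 11 shares tried moved. Those still listed under BPK25 came to 0.840% (CTCF), 1.5% (MBD2), 0.735% (MBD3) and 0.952% (TET1), and those under IAA to 0% for each of the 4. The shares at CTCF were 76% (MBD2), 78.7% (MBD3) and 74.3% (TET1). This setting leaves fewer regions by construction, and any further cause was not tested.

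No paired analysis was possible because each list pools replicates 1 to 3 and its columns carry no replicate. For the same reason no replicate was left out. The floor, which follows depth, was lower in every treated list than in its DMSO list.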
